A study of Mus musculus with 12 samples.

Results

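The genes described here are 10 members of the transforming growth factor beta (TGF-beta) pathway: the ligand Tgfb1, its surface anchor Lrrc32 (GARP), the integrin chains Itgav and Itgb8, the receptors Tgfbr1, Tgfbr2 and Tgfbr3, the signal transducers Smad3 and Smad7, and the nuclear co-repressor Skil. They were taken by gene symbol from 19938 named genes, and each was represented by 1 transcript cluster of the array. The RNA was that of CD8+CD28low regulatory T cells from C57Bl/6 mice. There were 4 groups of 3 arrays: activated Aire-deficient (KO) cells, activated wild-type (WT) cells, native KO cells and native WT cells. Activated cells had spent 96 h in culture with anti-CD3 antibody and allogenic antigen-presenting cells, and native cells were taken freshly. The titles call the arrays of a group biological replicates; the Aire allele, the number of mice behind an array and any removal of the antigen-presenting cells before lysis are not stated in the labels.

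TGF-beta is made as a latent complex. GARP holds that complex on the surface of activated regulatory T cells, and integrins that pair Itgav with Itgb8 release the active ligand. The ligand brings the kinase receptors Tgfbr2 and Tgfbr1 together, Tgfbr1 phosphorylates Smad2 and Smad3, and these enter the nucleus with Smad4. Smad7, which blocks the receptor complex, and Skil, which represses SMAD target genes, are themselves induced by the pathway and form its negative feedback. In T cells TGF-beta restrains effector differentiation and supports regulatory and tissue-resident states.

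The values are log2 levels, on which a difference of 1 is a doubling, and levels are compared between groups for a gene and not between genes. The level of an array called background is the 95th percentile of its olfactory receptor genes, a family not expected in T cells. It lay between 6.12 and 6.72 on 11 arrays and at 7.31 on activated KO array 3. Its values also had the smallest interquartile range, 2.19 where the others ran from 2.45 to 2.89, and it stood apart on the second principal component (63.79, against -28.71 to 6.35). Aire itself lay at background in all 4 groups, so its level could not check the genotype labels. Xist was low on activated KO array 1 (4.98) and native KO array 1 (5.26), and the other 10 arrays ran from 9.34 to 11.47. The Y-linked gene Kdm5d was above background on every array. On arrays 1, 2 and 3 it was at 9.16, 8.36 and 8.30 in native KO and 8.35, 7.68 and 7.48 in native WT cells. In activated cells it was at 8.78, 8.70 and 7.32 in KO and 8.11, 7.54 and 7.57 in WT. The part of Xist and Kdm5d differences between arrays in the members' values was not tested. All 8 measured CD8 T cell markers lay above background in every group, with Cd8a from 10.77 to 12.70, and Cd4 lay at background in every group. Cd28 is 1 of the 8, so they do not check the CD28low or the regulatory part of the label. Cd28 ran from 9.98 to 11.97 and was above background on every array; the labels' CD28low does not say how the cells were gated.

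Most of these genes differed between activated and native cells. Tgfb1, Lrrc32 and Itgav rose, and Tgfbr1, Tgfbr2, Tgfbr3, Smad7 and Skil fell, in KO and in WT cells alike. These 8 of 10 members were called (limma over all 12 arrays, adjusted p under 0.05 over all genes) in activated against native KO cells, where 20.1% of all genes were called, and the same 8 in WT cells, where 20.6% were. In KO cells 3 members were higher, beside 8.72% of all genes, and 5 were lower, beside 11.4%. In WT cells the same 3 were higher, beside 9.72% of all genes, and the same 5 lower, beside 10.9%. The shares of all genes include 8578 of the 19938 that lay at background in all 4 groups, so they are not shares of expressed genes. A fit without those 8578 genes was run as an alternative, but its shares are not given here. Smad3 and Itgb8 were not called in either genotype. The share of all genes whose activated and native arrays did not overlap was 30.87% in KO and 40.95% in WT cells. In these pooled cells, a smaller share of expressing cells and less RNA per cell cannot be told apart. The median difference of the members was -0.96 in KO and -0.83 in WT cells, where it was 0.02 in KO and -0.02 in WT cells over all genes. Of 11 neutrophil markers, 5 were lower in activated than in native KO cells and 0 of 11 in WT cells. Of 8 CD8 T cell markers, 2 were lower in KO and 0 in WT cells. Of 15 macrophage and dendritic cell markers, 12 lay at background in activated KO and 13 in activated WT cells. The others were Cd68 and Batf3 in both groups and Itgax in KO. Of 7 B cell markers, 6 lay at background in each activated group, all but Cd79b. The part of such cells in the members' values was not tested.

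**Figure D1:**
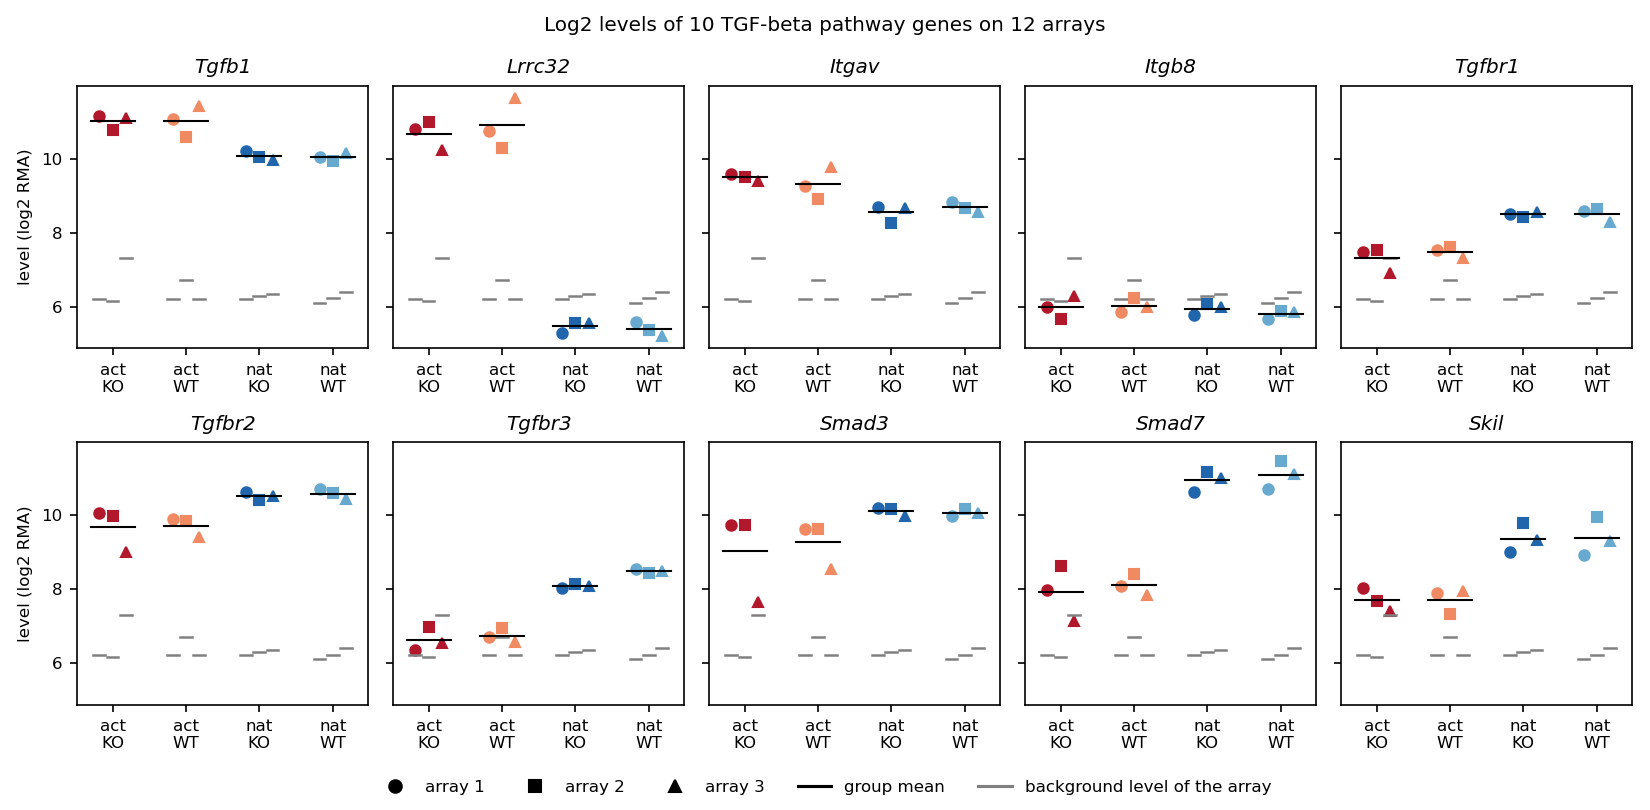
Log2 levels of the 10 genes on each of the 12 arrays, in activated KO, activated WT, native KO and native WT cells (act, activated; nat, native). Symbols mark arrays 1, 2 and 3, black bars the group mean and grey bars the background level of that array; Lrrc32 lies below background on all 6 native arrays and between 10.24 and 11.64 on the activated ones.

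Sequences upstream of the start site are shown for members other than Smad7 that changed on activation and are held in the RefSeq promoter table of GRCm38.p6. Genes that rose can so be set beside genes that fell. Smad7, which also fell, was not looked up. Each is the 250 bases before the table's start site, 5′ to 3′ on the gene's strand. The Itgav start lies inside the annotated span of that gene, and the window of Tgfbr1 is the upstream one of 2 in the table. Capitals mark GGGCGG, the GC box that Sp1 family factors bind, and CAGAC, the core of the SMAD binding element, on either strand; no 2 matches overlapped.
Tgfb1 (chr7:25686752-25687001, plus strand; rose): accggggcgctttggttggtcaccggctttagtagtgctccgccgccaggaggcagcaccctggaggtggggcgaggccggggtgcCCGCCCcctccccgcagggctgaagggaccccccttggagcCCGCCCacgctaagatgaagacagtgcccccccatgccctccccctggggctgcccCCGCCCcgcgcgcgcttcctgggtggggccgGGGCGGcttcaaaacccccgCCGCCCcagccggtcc
Itgav (chr2:83724147-83724396, plus strand; rose): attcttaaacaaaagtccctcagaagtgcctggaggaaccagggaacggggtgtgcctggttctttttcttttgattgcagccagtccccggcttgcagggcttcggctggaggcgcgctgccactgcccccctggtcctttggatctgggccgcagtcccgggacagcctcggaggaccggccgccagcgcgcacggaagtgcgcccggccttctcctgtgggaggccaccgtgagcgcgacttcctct
Tgfbr1 (chr4:47352972-47353221, plus strand; fell): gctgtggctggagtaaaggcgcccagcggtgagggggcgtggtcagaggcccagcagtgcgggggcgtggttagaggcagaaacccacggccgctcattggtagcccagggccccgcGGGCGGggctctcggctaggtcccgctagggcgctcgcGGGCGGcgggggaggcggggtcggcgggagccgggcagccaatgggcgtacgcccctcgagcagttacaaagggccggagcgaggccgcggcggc
Tgfbr2 (chr9:116175364-116175613, minus strand; fell): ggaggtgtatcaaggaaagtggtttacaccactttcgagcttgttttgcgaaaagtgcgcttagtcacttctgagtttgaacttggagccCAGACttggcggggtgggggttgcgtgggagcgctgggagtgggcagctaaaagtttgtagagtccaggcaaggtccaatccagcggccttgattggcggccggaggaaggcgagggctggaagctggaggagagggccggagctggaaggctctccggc
The Tgfb1 window held 5 GC boxes, the Tgfbr1 window 2 and the Itgav and Tgfbr2 windows 0. Of 32817 windows of that length in the table, 32.7% held at least 1. Among the 4 windows shown, CAGAC occurred once, in the Tgfbr2 window, its first base 160 bases before the start site. The Tgfbr1 window that is not shown also held 1, its first base 203 bases before that start site. CAGAC was present in 42.2% of all windows. The AP-1 motif TGANTCA, read on either strand and present in 6.8% of windows, was in none of the 4. A match describes letters only and does not show that a factor binds.

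Lrrc32 (chromosome 7, 98489305 to 98501831 on GRCm38.p6) encodes GARP, which docks latent TGF-beta on the cell surface. Arrays 1, 2 and 3 are given in that order here and for the genes that follow. In activated cells its log2 level was 10.80, 10.98 and 10.24 in KO and 10.76, 10.28 and 11.64 in WT. In native cells it was 5.31, 5.58 and 5.56 in KO and 5.61, 5.39 and 5.21 in WT. All 6 activated arrays were far above background and all 6 native arrays below it. The rise is given as a lower bound: at least 4.38 on the log2 scale in KO cells, or at least 20.8-fold (limma, adjusted p = 4.5e-07), and at least 4.64 in WT cells, or at least 24.9-fold (adjusted p = 2.33e-07). GARP is also carried by platelets. Their markers Pf4 and Gp9 were at background in activated KO and activated WT cells, and 5 of the 8 measured platelet markers were at background in each of those groups. The other 3 were each above background on some activated arrays: Ppbp on 1 of 3 KO and 2 of 3 WT arrays, and Treml1 and Tubb1 on 2 of 3 arrays of each genotype. Of these, Tubb1 was called higher in activated than in native KO cells, by at least 0.19 (limma, adjusted p = 0.00969). Of the 5 measured markers of FOXP3-positive CD4 regulatory T cells, which also carry GARP, Cd4 and Foxp3 were at background in both activated groups and Ikzf2, Ctla4 and Il2ra were not. Il2ra rose by 5.55 in KO and 6.01 in WT cells; Ctla4 differed by 0.76 in KO and 2.43 in WT cells and Ikzf2 by -0.30 in KO and -0.20 in WT cells, and neither passed. The part of platelets or such regulatory T cells in the Lrrc32 value was not tested.

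Tgfb1 (chromosome 7, 25687002 to 25705077) encodes the ligand itself. Activated levels were 11.14, 10.78 and 11.10 in KO and 11.07, 10.59 and 11.42 in WT cells. Native levels were 10.22, 10.06 and 9.96 in KO and 10.05, 9.95 and 10.15 in WT cells. Every activated array lay above every native array. The rise was 0.93 ± 0.18 in KO cells (SE, n = 3 per group; limma, adjusted p = 0.00402), a 1.90-fold change, and 0.98 ± 0.18 in WT cells (adjusted p = 0.00277), a 1.97-fold change.

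Itgav (chromosome 2, 83722303 to 83806917), the alpha chain of integrins that activate latent TGF-beta, was at 9.58, 9.52 and 9.39 in activated KO and 9.27, 8.92 and 9.79 in activated WT cells. In native cells it was at 8.70, 8.27 and 8.68 in KO and 8.83, 8.68 and 8.56 in WT. The activated arrays lay above the native arrays of the same genotype, by the narrowest margin for WT array 2. Itgav rose by 0.95 ± 0.20 in KO cells (limma, adjusted p = 0.00507) and by 0.64 ± 0.20 in WT cells (adjusted p = 0.0385). The WT call was lost in 8 of 22 alternatives, among them those without native KO array 3, any 1 native WT array, activated WT array 1 or activated WT array 3, with values from 0.41 without activated WT array 3 (adjusted p = 0.146) to 0.71 without native WT array 1 (adjusted p = 0.0632). Its partner chain Itgb8 (chromosome 12, 119162803 to 119238276) lay at background in all 4 groups, between 5.67 and 6.31 on the 12 arrays, so neither state gave a measurable level.

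The 3 receptors fell. Tgfbr3 (betaglycan; chromosome 5, 107106567 to 107289629), a co-receptor that presents ligand to Tgfbr2, was at 6.37, 6.97 and 6.54 in activated KO and 6.72, 6.94 and 6.57 in activated WT cells. In native cells it was at 8.02, 8.14 and 8.09 in KO and 8.54, 8.44 and 8.49 in WT. No activated array reached any native array. It fell by 1.45 on the log2 scale in KO cells (SE 0.15; limma, adjusted p = 4.06e-05) and by 1.75 in WT cells (SE 0.15; adjusted p = 8.21e-06).

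Tgfbr1 (chromosome 4, 47353222 to 47414926), the type I kinase receptor, was at 7.49, 7.55 and 6.92 in activated KO and 7.54, 7.63 and 7.31 in activated WT cells, against 8.52, 8.43 and 8.56 in native KO and 8.59, 8.65 and 8.30 in native WT cells. Tgfbr1 differed by -1.18 ± 0.17 in KO cells (limma, adjusted p = 0.000439) and by -1.02 ± 0.17 in WT cells (adjusted p = 0.0011). Tgfbr2 (chromosome 9, 116087695 to 116175363), the ligand-binding kinase receptor, was at 10.05, 9.96 and 8.99 in activated KO and 9.89, 9.83 and 9.41 in activated WT cells. Its native levels were 10.62, 10.40 and 10.51 in KO and 10.69, 10.58 and 10.42 in WT cells. Groups of the same genotype did not overlap for either receptor, and array 3 was the lowest activated array in both genotypes. Tgfbr2 differed by -0.84 ± 0.24 in KO (limma, adjusted p = 0.0278) and by -0.85 ± 0.24 in WT cells (adjusted p = 0.0257). The KO call was lost in 7 of 22 alternatives, among them those without any 1 native KO array, where the values ran from -0.90 to -0.79. Without activated KO array 3 the KO difference was -0.50, still called (adjusted p = 0.0268). The WT call was lost in 4 of 22, among them those without native WT array 1 (-0.79), native WT array 2 (-0.85) or activated WT array 3 (-0.70).

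**Figure D2:**
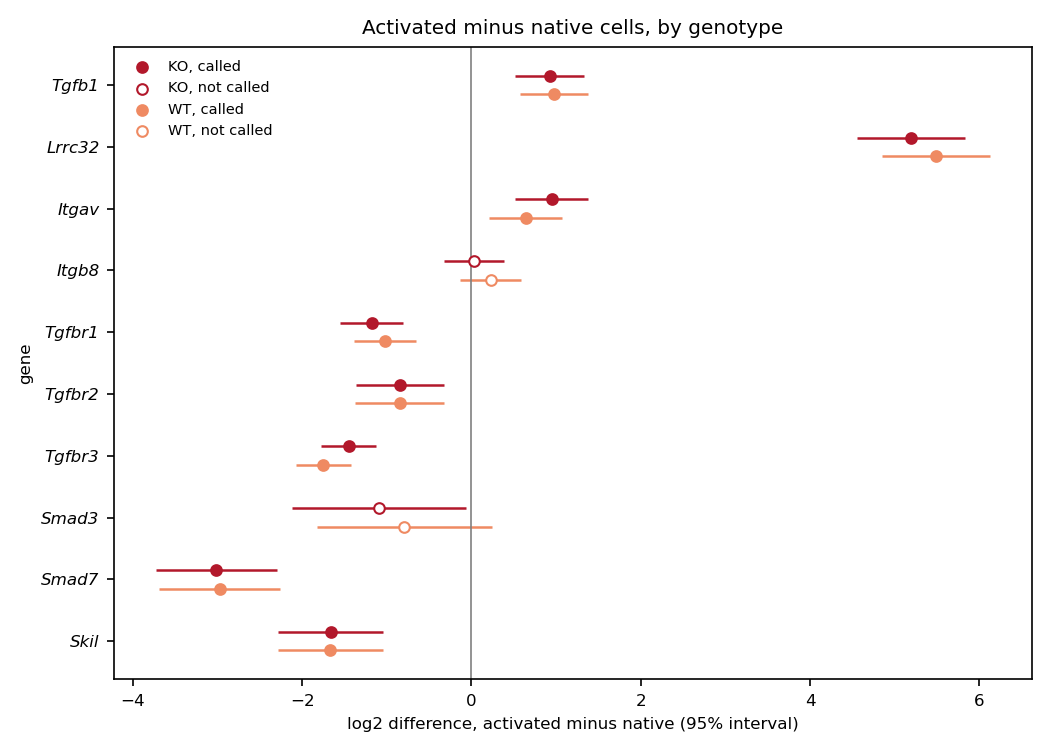
Log2 difference between activated and native cells for each gene, in KO and in WT cells, with 95% intervals of the fit; filled points passed adjusted p under 0.05 over all genes. Tgfb1, Lrrc32 and Itgav lie to the right of 0 and the receptors, Smad7 and Skil to the left in both genotypes; the Lrrc32 points are the fitted differences of 5.19 and 5.49, which start from native values at background.

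Both feedback inhibitors fell. Smad7 (chromosome 18), which targets the active receptor complex for degradation, was at 7.99, 8.63 and 7.13 in activated KO and 8.08, 8.42 and 7.83 in activated WT cells. Native levels were 10.63, 11.16 and 11.01 in KO and 10.69, 11.45 and 11.10 in WT cells. No activated array overlapped any native array. The difference was -3.02 ± 0.33 in KO cells (limma, adjusted p = 6.27e-05) and -2.97 ± 0.33 in WT cells (adjusted p = 6.18e-05), or 0.124 of the native level in KO and 0.127 in WT cells.

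Skil (chromosome 3, 31095058 to 31122923), the SMAD co-repressor SnoN, was at 8.04, 7.67 and 7.40 in activated KO and 7.90, 7.32 and 7.95 in activated WT cells. In native cells it was at 8.99, 9.78 and 9.33 in KO and 8.92, 9.95 and 9.30 in WT. Activated and native arrays did not overlap. Skil differed by -1.66 ± 0.29 in KO (limma, adjusted p = 0.00162) and by -1.67 ± 0.29 in WT cells (adjusted p = 0.00149). Among native arrays, Smad7 and Skil were each lowest on array 1 and highest on array 2 in both genotypes.

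Smad3 (chromosome 9, 63646766 to 63757994), the receptor-activated SMAD, was the member that varied most within a group. It was at 9.72, 9.72 and 7.64 in activated KO and 9.63, 9.63 and 8.53 in activated WT cells. Its native levels were 10.19, 10.17 and 9.98 in KO and 9.96, 10.16 and 10.06 in WT cells. All activated arrays lay below the native arrays, but array 3 was the lowest by over 1 log2 unit in both genotypes. The differences of -1.09 ± 0.47 in KO (limma, adjusted p = 0.143) and -0.80 ± 0.47 in WT cells (adjusted p = 0.308) did not pass. Without activated KO array 3 the KO difference was -0.39 (adjusted p = 0.347), and the unchanged WT difference of -0.80 passed on the narrower shared error (adjusted p = 0.026).

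On activated KO array 3, Tgfbr1 (6.92), Tgfbr3 (6.54) and Smad7 (7.13) lay below its background level of 7.31, and the mean of its CD8 T cell markers was 10.75 where the other activated arrays ran from 11.43 to 11.82. Other pathway genes described below also lay under that background on this array. Among them were Itgb3 (7.25), Pmepa1 (7.20), Nedd4l (6.90), Runx1 (6.76), Klf2 (6.51) and S1pr1 (6.35), and their KO differences include these values. Without this array, the KO differences were -0.98 for Tgfbr1, -1.41 for Tgfbr3 and -2.62 for Smad7, which all still passed. In KO cells 8 members were called as before.

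Between genotypes no member was called. In activated cells, 0 of 10 members and 0% of all genes passed for KO against WT; in native cells the counts were likewise 0 of 10 and 0%. At an unadjusted p under 0.05 there were 0 members and 87 genes in activated cells, and 1 member and 131 genes in native cells. With the 6 native arrays alone and the replicate number as a block, 14 genes were called between native KO and WT cells, none of them a member. Among members, activated differences ran from -0.23 ± 0.47 for Smad3 to 0.17 ± 0.20 for Itgav, and native differences from -0.41 ± 0.15 for Tgfbr3 to 0.16 ± 0.16 for Itgb8, a gene at background. The 95% intervals of the activated differences reached from -0.42 to 0.38 for Tgfb1, from -0.86 to 0.42 for Lrrc32, from -0.91 to 0.53 for Smad7 and from -1.26 to 0.80 for Smad3. With 3 arrays per group, differences within those limits remain possible. The intervals are not adjusted for the number of genes, so they are not limits of detection, and larger differences could also go uncalled.

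**Figure D3:**
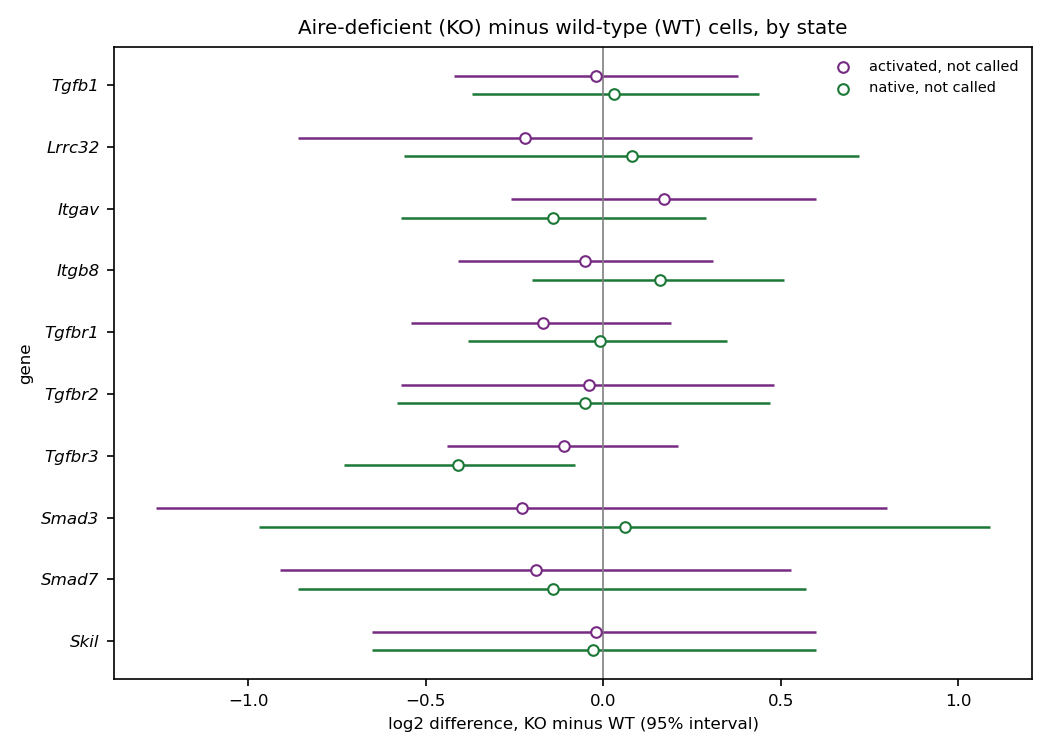
Log2 difference between KO and WT cells for each gene, in activated and in native cells, with 95% intervals of the fit; open points did not pass adjusted p under 0.05. All intervals cross 0 except that of Tgfbr3 in native cells, at -0.41, which was not called after adjustment.

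Tgfbr3 was the member at an unadjusted p under 0.05 between native genotypes. Its native KO levels of 8.02, 8.14 and 8.09 lay below its native WT levels of 8.54, 8.44 and 8.49, without overlap. KO was lower than WT in 3 of 3 same-numbered pairs, by differences of -0.52, -0.31 and -0.40. The fitted difference was -0.41 ± 0.15 (limma, unadjusted p = 0.0186, adjusted p = 1), or 0.754 of the WT level. Adjusted p-values over its 24 alternatives ran from 0.251 to 1, and the value from -0.43 to -0.38. The SE of 0.15 was shared by all 4 groups, in a fit without pairing. The SD of Tgfbr3 was 0.06 in native KO and 0.05 in native WT cells, against 0.31 in activated KO and 0.19 in activated WT cells. The p-value of the main fit therefore does not measure the spread of the native arrays alone. In 7.04% of all genes the native KO and WT arrays were without overlap. After activation the difference was -0.11 ± 0.15, with overlapping arrays, and the change of the difference with activation was 0.29 ± 0.21 (limma, adjusted p = 1). Activated Tgfbr3 levels ran from 6.37 to 6.97, close to or below background, where RMA compresses differences. The effect of that on the activated difference was not tested. Mean levels of neutrophil and NK cell markers in native cells were higher in KO in 3 of 3 same-numbered pairs, with overlapping ranges: the mean of 11 neutrophil markers was 8.06, 5.95 and 7.59 in KO and 6.60, 5.83 and 5.50 in WT, and that of 8 NK cell markers was 9.06, 8.41 and 8.65 in KO and 8.45, 8.07 and 8.05 in WT. Of the neutrophil markers, 9 of 11 were above background on at least 1 native array in each genotype, and all 8 NK cell markers were. The NK list holds Nkg7, at a mean of 13.18 in both native groups, and Eomes, at 10.38 in KO and 10.07 in WT. Eomes also stands in the list of genes known to fall with TGF-beta in T cells. The mean of the NK list therefore does not measure NK cells alone. The part of neutrophils or NK cells in the Tgfbr3 value was not tested. Tgfbr3 was at -0.38 without native KO array 1, the array with the highest neutrophil mean and low Xist.

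No member's response to activation was called different between genotypes. The interaction of genotype and state was called for 0 of 10 members and 0% of genes, with 86 genes at an unadjusted p under 0.05, and Tgfbr3 had the lowest unadjusted p of the members, 0.189. Smad7, for example, differed by -3.02 in KO and -2.97 in WT cells. For Lrrc32 the native levels of both genotypes lay at background, so only the bounds above can be set side by side.

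More of the other pathway genes fell than rose on activation. Of 80 measured genes other than the members, 9 rose and 28 fell in activated against native KO cells (limma, adjusted p under 0.05), and 11 rose and 27 fell in WT cells. Another 43 in KO and 42 in WT cells did not pass. The share called was 46.2% in KO and 47.5% in WT cells, beside 20.1% of all genes in KO and 20.6% in WT, and 34 genes were called in the same direction in both. Over all genes, 8.72% were higher and 11.4% lower in KO cells, and 9.72% higher and 10.9% lower in WT cells. The counts of each list below stand beside these shares. Of all 19938 genes, 8578 lay at background in all 4 groups, so the shares over all genes are not those of expressed genes. These counts depended on the arrays: 18 were called in KO cells without both KO arrays numbered 1, and 25 in WT cells without native WT array 1.

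**Figure D4:**
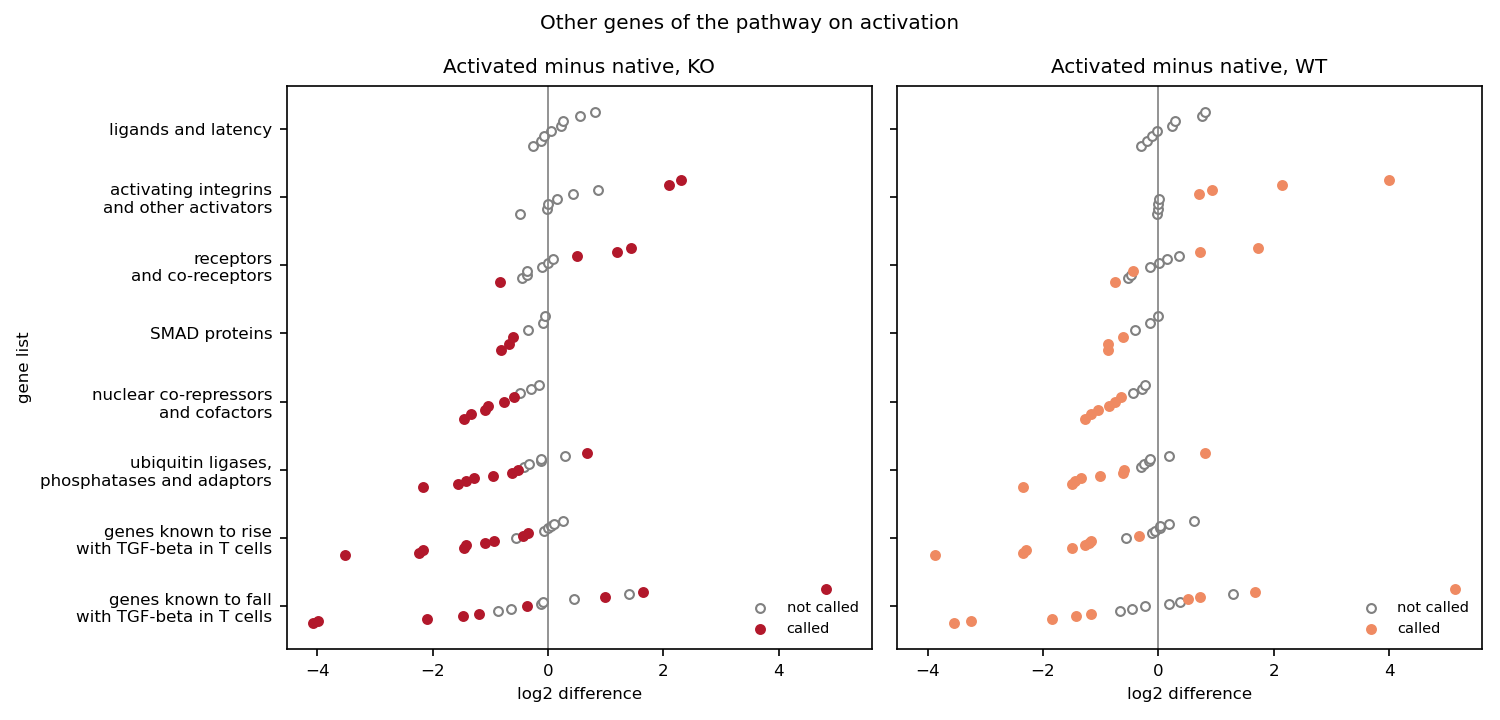
Log2 differences between activated and native cells of the other measured pathway genes, by list, in KO (left) and WT cells (right); each point is a gene, filled where it passed adjusted p under 0.05 over all genes. Some genes stand in more than 1 list. SMAD proteins and nuclear co-repressors lie at or left of 0 throughout, while the activator list holds rises and no called falls.

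Among other ligand and latency genes, 0 of 8 passed in either genotype. The closest was Tgfb3, another ligand of the family, whose native levels lay at background; it was higher by at least 0.14 in activated KO cells (limma, adjusted p = 0.0967) and by at least 0.19 in activated WT cells (adjusted p = 0.0932), which did not pass. Ltbp3, a latent TGF-beta binding protein, differed by 0.56 in KO and 0.75 in WT cells. Of 8 other activators, 2 rose in KO and 4 in WT cells. Itgb3, a beta chain that also pairs with Itgav, rose by 2.09 ± 0.50 in KO and 2.14 ± 0.50 in WT cells. The activated KO level of Itgb3 was above background on 2 of 3 arrays. Mmp9, a protease able to release latent ligand, rose by 2.31 ± 0.72 in KO cells and by at least 2.97 from background in WT cells. Its native KO level was above background on only 1 of 3 arrays. Itgb1 rose in WT cells (0.71 ± 0.17), and its KO difference of 0.43 did not pass. Itgb5 rose by at least 0.37 from background in WT cells.

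Of 10 other receptors, 3 rose and 1 fell in KO cells, and 2 rose and 2 fell in WT cells. Acvrl1, a type I receptor of the BMP and TGF-beta family, rose by 1.43 ± 0.19 in KO and 0.72 ± 0.19 in WT cells. Bmpr1a, a BMP receptor, rose by at least 0.78 in KO and at least 0.88 in WT cells from background. Bambi, a decoy receptor without a kinase, fell by 0.84 in KO and by 0.75 in WT cells. 

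Of 6 other SMADs, 3 fell and 0 rose in each genotype. Smad4, the shared partner, differed by -0.82 ± 0.15 in KO and -0.87 ± 0.15 in WT cells, Smad2 by -0.60 in KO and -0.62 in WT, and Smad1, a SMAD of the BMP branch, by -0.68 in KO and -0.87 in WT. Smad6 and Smad9 were at background in all 4 groups. Among 9 other nuclear cofactors, 6 fell and 0 rose in each genotype. These included the co-repressors Ski, at -1.10 ± 0.12 in KO and -1.16 ± 0.12 in WT cells, and Tgif1, at -1.46 ± 0.25 in KO and -1.28 ± 0.25 in WT, and the co-activator Crebbp, at -1.04 in KO and -1.05 in WT.

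Of 13 ubiquitin ligases, phosphatases and adaptors, 7 fell and 1 rose in each genotype. Smurf2, a ligase that acts with Smad7 on the receptors, differed by -1.29 ± 0.23 in KO and -1.44 ± 0.23 in WT cells, and Nedd4l, another ligase of that family, by -1.56 in KO and -1.34 in WT. Pmepa1, a membrane adaptor that sequesters SMADs, was at -1.43 in KO and -1.49 in WT. Ldlrad4, a relative of Pmepa1, differed by -2.16 ± 0.21 in KO cells and was lower by at least 2.04 in WT cells, where the activated level was at background. Its activated KO level was above background on only 1 of 3 arrays. The rise was that of Fkbp1a, which binds Tgfbr1, at 0.67 ± 0.19 in KO and 0.80 ± 0.19 in WT cells.

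Itgae and Runx1 were among the genes known to rise with TGF-beta in T cells that fell on activation. Of 15 measured genes of that list other than the members, 9 fell and 0 rose in KO cells, and 8 fell and 0 rose in WT cells. Of all genes, 11.4% fell in KO and 10.9% in WT cells. The list shares Ski, Tgif1, Pmepa1 and Ldlrad4 with those above. Itgae, the integrin alpha chain CD103 that tissue-resident CD8 T cells carry, differed by -3.52 ± 0.40 in KO (limma, adjusted p = 9.27e-05) and by -3.88 ± 0.40 in WT cells (adjusted p = 3.83e-05). Its activated level was above background on only 1 of 3 arrays in each genotype, so the size of the fall is uncertain. The transcription factor Runx1 was at -2.24 ± 0.27 in KO and -2.30 ± 0.27 in WT. Genes known to fall with TGF-beta went both ways: of 15, 3 rose and 6 fell in KO cells, and 4 rose and 5 fell in WT cells. Gzmb, granzyme B, rose by 4.82 ± 0.25 in KO and 5.15 ± 0.25 in WT cells. Klf2, a factor of quiescent circulating T cells, differed by -4.07 in KO and -3.55 in WT, and the egress receptor S1pr1 by -3.99 in KO and -3.25 in WT. Both lists were drawn with earlier results of these data known and hold genes that T cell receptor stimulation is also known to move; TGF-beta signalling itself was not measured.

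Between genotypes, 0 of the 80 other pathway genes passed in either state in the fit over all 12 arrays. In the 6 native arrays with the replicate number as a block, 1 passed: Ifng, interferon gamma, named after its value was seen, was higher in KO cells by 0.68 (limma, adjusted p = 0.0434), in 3 of 3 same-numbered pairs, with levels from 9.28 to 10.60 in native KO and from 8.80 to 9.77 in native WT cells. Over all 12 arrays its adjusted p was 1. In that fit 2 were at an unadjusted p under 0.05 in native cells and 0 in activated cells. The 2 were Tgfbi, a secreted matrix protein, and Thbs1, thrombospondin and an activator of latent TGF-beta; native WT levels of both lay at background with no bound above 0, so no size is given.

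The genes whose profile over the 12 arrays lay nearest to a member's were found by the root mean square difference between log2 profiles, each centred on its mean, among 11359 other genes above background in at least 1 group. Most of each profile is the step between native and activated arrays, which all arrays of a state share. For Lrrc32 they were Il2ra, the CD25 chain of the high-affinity interleukin-2 receptor, at 0.403, Gzmb at 0.456 and Capg, an actin-capping protein, at 0.527; the SD of Lrrc32 over the arrays was 2.81. For Smad7 they were Dusp10, a MAP kinase phosphatase, at 0.208, the noncoding RNA Lncpint at 0.225 and Nfkbia, the inhibitor of NF-kappa-B, at 0.255, beside an SD of 1.62. Skil lay nearest to the immediate early gene Ier2 (0.177), the mitochondrial carrier Slc25a25 (0.195) and Ifrd1 (0.198), with an SD of 0.935. For Tgfbr3 the nearest were Fry and Gabrr2 (0.173 each) and Arhgap31 (0.175). Nearest to Tgfb1 were the chaperonin subunit Tcp1 (0.066), Shmt2 (0.093), an enzyme of serine metabolism, and the proteasome subunit Psma1 (0.096). Tgfbr2 lay nearest to Nr3c1, the glucocorticoid receptor (0.078), Ccdc174 (0.081) and Atg13 (0.088), Tgfbr1 to the kinases Stk4 (0.091) and Map3k3 (0.110) and to Nudt6 (0.110), and Itgav to Spcs3 (0.121), Numbl (0.135) and Clcn5 (0.137). Smad3 lay nearest to Jakmip1 (0.186), Usp11 (0.195) and Cyria (0.216).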

How the data were processed

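Expression was measured on 12 whole-transcript Affymetrix arrays in 4 groups of 3. Per the labels' protocols, total RNA was extracted with Trizol, cleaned on RNeasy columns and converted to biotin-labelled sense DNA. The deposited values are the authors' log2 signals of 35556 transcript clusters per array; the submitters' processing notes name RMA and Partek, without versions or options. RMA compresses differences near background. Names were taken from GEO's platform annotation and updated by Entrez identifier (GRCm38.p6): 21789 had 1 symbol, 1621 several and 12146 none. The brightest transcript cluster by mean over 12 arrays stood for a gene; each member had only 1.

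Group means were fitted over all 12 arrays with limma 3.58.1 in R 4.3.3 (lmFit, eBayes), without a block, and p-values were adjusted by Benjamini-Hochberg over 19938 genes. Errors with differences are standard errors of that fit. The same code was tested on simulated data. Background was the 95th percentile of 1027 olfactory receptor genes on an array, and a gene not above it on any of a group's 3 arrays was called at background there; a difference from such a group is given as a bound. Array numbers are those of the titles. Deviations from group means of same-numbered native KO and WT arrays correlated across genes at 0.58, 0.396 and 0.157, and those of activated arrays at 0.694, -0.017 and -0.013. The numbers were taken to pair native arrays only.

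Named beside the members were, per comparison and list, up to 4 called genes with the largest difference, or up to 2 with the smallest p where none was called. The members and lists were chosen with earlier results of these data known. Alternatives left out each array, added blocks, dropped dim genes, rescaled arrays, changed the moderation, weighted arrays, averaged transcript clusters and tested all of them. Sequences come from RefSeq (GRCm38.p6), whose promoter table gave windows for 6 members; Smad7 was not looked up. The number of arrays limits the precision.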

Additional observations from a re-analysis of the deposited data

How the results depend on the processing

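The calls for the members on activation were kept under most alternatives: 7 to 8 were called in KO and 6 to 9 in WT cells when 1 array was left out, and 8 and 8 with the replicate block (title number), which changed no member's call. The block by experiment number could not give activation differences, and the mean over states and the interaction use all 4 groups, so no fit on fewer groups exists for them. Itgb8 has no value with genes at background left out. The 3 alternatives chosen after seeing the data were the native and the activated arrays each fitted alone with the replicate block, and all comparisons without both KO arrays numbered 1. Array weights stopped short of their tolerance. The cause of the shifts below was not tested.

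Genes called between native KO and WT cells numbered 0. They numbered 1 with genes at background left out, 1 with trend and robust moderation and 3 with array weights. With all 35556 transcript clusters tested, 2 clusters were called. Leaving out 1 array gave 0 to 10 genes, and the 6 native arrays with the replicate block gave 14. Ifng, 1 of the other pathway genes, was called in that block fit. For the mean over both states, 0 genes were called, and 0 to 3 leaving out 1 array. On activation, 4002 genes were called in KO cells, against 2190 without both KO arrays numbered 1. In WT cells 4107 genes were called, against 7609 with array weights. With all 35556 transcript clusters tested, 7526 clusters were called in KO and 7687 in WT cells. These count clusters, named or not, and cannot be set against the counts of genes. Other pathway genes called on activation ran from 26 to 40 in KO and from 25 to 46 in WT cells leaving out 1 array, and were 18 in KO cells without both KO arrays numbered 1.

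Signs turned only for differences that were not called. For native KO minus WT, the turned values were 0.001 for Tgfbr1 with quantile normalization, 0.073 for Skil with array weights, and -0.040 for Tgfb1, 0.008 for Smad7 and 0.16 for Skil without both KO arrays numbered 1. For activated KO minus WT they were 0.043 for Tgfbr1, 0.20 for Tgfbr2, 0.25 for Tgfbr3, 0.38 for Smad3 and 0.48 for Smad7 with array weights, 0.015 for Tgfbr3 without both KO arrays numbered 1, and 0.003 for Skil with quantile normalization. For activated minus native KO cells, Itgb8 was at -0.28 with array weights and -0.053 without both KO arrays numbered 1. Leaving out 1 array gave, for native KO minus WT, -0.040 to 0.091 for Tgfb1, -0.015 to 0.19 for Lrrc32, -0.12 to 0.053 for Tgfbr1, -0.12 to 0.011 for Tgfbr2, -0.34 to 0.040 for Smad7 and -0.26 to 0.25 for Skil. For activated KO minus WT it gave -0.24 to 0.18 for Tgfb1, -0.53 to 0.15 for Lrrc32, -0.035 to 0.40 for Itgav, -0.21 to 0.11 for Itgb8, -0.29 to 0.028 for Tgfbr1, -0.24 to 0.30 for Tgfbr2, -0.28 to 0.015 for Tgfbr3, -0.60 to 0.46 for Smad3, -0.55 to 0.21 for Smad7 and -0.22 to 0.13 for Skil. For activated minus native KO it gave -0.13 to 0.19 for Itgb8.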
